A study of Mus musculus with 9 samples.

Results

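Icam1, Vcam1, Sele, Selp, Ch25h, Angpt2, Ptgs2 and Tmem252 are genes of adhesion and vascular activation that inflamed endothelium is known for. These 8 genes were taken by symbol from the 38911 genes in the deposited table, and their counts were compared in RNA sequencing libraries of whole mouse hippocampus. The groups were CCLF (cecal ligation and puncture, CLP, followed by the flavonoids of Cuscuta chinensis at 200 mg/kg), SAE (CLP alone, a surgical model of abdominal sepsis) and CTL (sham operation). Each group held 3 libraries, described as biological replicates, from healthy adult BALB/c mice kept free of specific pathogens. CLP was shared by the CCLF and SAE groups, and the interval after surgery was not given in the sources used here. SAE was tested against CTL, and the CCLF libraries are described without a test. Groups are named as labelled throughout, and no value in the table checks independently which operation a mouse received. Lcn2, an acute-phase gene that infection is known to raise, had 13, 14 and 6 counts in SAE libraries, against 13816, 14822 and 13246 in CTL libraries, the opposite of what CLP and sham labels would lead one to look for. Whether the SAE and CTL labels are exchanged was not tested, so each fold below holds for the labels as given. All 7 members with counts were lower in SAE than in CTL libraries, from a mean of 1.51% of the CTL mean in Selp to 76.1% in Ptgs2.

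Resting brain endothelium carries few adhesion molecules on its surface. Bacterial products and cytokines such as TNF and IL-1 act through NF-kB, a transcription factor, and induce selectins, on which leukocytes roll, and immunoglobulin-type adhesion molecules, to which leukocyte integrins bind. Activated vessels also release angiopoietin-2, make prostaglandins through cyclooxygenase-2 and make 25-hydroxycholesterol. Several of these genes are made by other cells too: Ptgs2 is also a gene of excitatory neurons, Ch25h of macrophages and Vcam1 of other glial and vascular cells.

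Start-site sequences are shown because the members were lower together, in very different degree, and several are known NF-kB targets. Of the 8 members, 6 were matched in the RefSeq promoter table (build GRCm38.p6), and all 6 are printed as the 250 bases before the annotated start, 5′ to 3′ on the gene's strand. Capitals mark matches to GGNNNTTCC on either strand (an NF-kB pattern), TTGCNNAA on either strand (a C/EBP pattern) and TATAAA on the gene's strand (a TATA box pattern). The build of the deposited table is not given in the sources used here, so these positions belong to the promoter table alone.
Icam1 (chr9:21015690-21015939, plus strand): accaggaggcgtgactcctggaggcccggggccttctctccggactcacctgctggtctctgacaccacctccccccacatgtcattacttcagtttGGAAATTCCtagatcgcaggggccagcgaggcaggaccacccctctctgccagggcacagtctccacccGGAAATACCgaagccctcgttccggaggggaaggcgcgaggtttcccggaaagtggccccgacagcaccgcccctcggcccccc
Selp (chr1:164115014-164115263, plus strand): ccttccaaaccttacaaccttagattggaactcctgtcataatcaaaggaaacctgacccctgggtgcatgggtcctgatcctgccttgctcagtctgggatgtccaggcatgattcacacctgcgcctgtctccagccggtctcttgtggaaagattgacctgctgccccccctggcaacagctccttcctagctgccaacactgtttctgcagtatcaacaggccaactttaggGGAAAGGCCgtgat
Sele (chr1:164047984-164048233, plus strand): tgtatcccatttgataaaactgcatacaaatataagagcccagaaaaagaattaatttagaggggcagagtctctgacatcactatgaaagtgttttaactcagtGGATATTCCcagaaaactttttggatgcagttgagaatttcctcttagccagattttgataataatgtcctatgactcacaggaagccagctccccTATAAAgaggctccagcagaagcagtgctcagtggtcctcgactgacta
Ch25h (chr19:34475149-34475398, minus strand): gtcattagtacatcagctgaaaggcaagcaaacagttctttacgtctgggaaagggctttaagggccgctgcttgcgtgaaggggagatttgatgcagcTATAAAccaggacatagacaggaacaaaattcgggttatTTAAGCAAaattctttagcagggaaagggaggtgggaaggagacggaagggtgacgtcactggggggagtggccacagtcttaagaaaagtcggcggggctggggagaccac
Tmem252 (chr19:24673758-24674007, plus strand): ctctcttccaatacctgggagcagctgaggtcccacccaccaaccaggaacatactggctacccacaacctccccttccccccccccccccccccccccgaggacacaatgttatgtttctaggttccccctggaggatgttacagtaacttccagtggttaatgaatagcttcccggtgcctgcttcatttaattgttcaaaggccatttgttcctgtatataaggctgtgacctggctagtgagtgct
Ptgs2 (chr1:150099781-150100030, plus strand): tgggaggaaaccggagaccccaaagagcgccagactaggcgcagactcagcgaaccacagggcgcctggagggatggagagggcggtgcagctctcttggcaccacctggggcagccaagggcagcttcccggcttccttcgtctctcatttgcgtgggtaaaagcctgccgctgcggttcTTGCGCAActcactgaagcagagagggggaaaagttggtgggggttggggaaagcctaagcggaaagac

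The NF-kB pattern was found in 3 of the 6 member windows, those of Icam1, Selp and Sele, and in 15.7% of 32817 promoter windows of the same length. Icam1 held 2 matches, which begin 153 and 84 bases before the start. The match in Sele begins 145 bases before the start, and that in Selp 14 bases before it. The Ptgs2 window held a C/EBP match 69 bases before the start, a pattern found in 9.57% of windows. The TATA box pattern was found in 2 of the 6 member windows, Sele and Ch25h, against 7.6% of all windows. Its match begins 49 bases before the start in Sele and 151 bases before it in Ch25h. The C/EBP pattern was found in the windows of Ptgs2 and Ch25h. An AP-1 pattern, TGANTCA on either strand, was found in Sele and Selp, 2 of the 6 member windows, against 6.75% of all windows. A STAT pattern, TTCNNNGAA on either strand, was found in Sele and Icam1, against 7.01% of all windows, and the match in Sele overlaps the NF-kB match. The Tmem252 window held none of the 5 patterns as written. Variant letters, such as other forms of the TATA box, were not searched in any window. Matches are letters in a window and were not measured as bound sites.

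Library totals ran from 4626519 to 4895474 counts over all 9 libraries, which left low genes to counting error. The CCLF libraries stood apart in their spread. The per-gene chi-square of equal levels within a group had a median of 0.87 in CCLF libraries, 2.5 in SAE libraries and 2.46 in CTL libraries, where counting error alone gives 1.39. Counting error alone puts 10% of genes under a low chi-square limit. Below it lay 27.5% of genes in CCLF, 5.92% in SAE and 5.86% in CTL libraries. The mean chi-square per degree of freedom was 5.16 in CCLF libraries, 2.37 in SAE libraries and 3.25 in CTL libraries. Most genes thus agreed more closely among CCLF libraries than the middle value of counting error alone, while some differed widely. Of the members, 7 have 1 RefSeq transcript each and Sele has 3. Of coding genes with 3 RefSeq transcripts 21.3% had a mean of at least 10 counts, against 43.7% of those with 1, while 33.4% and 36.5% of them had 0 counts in every library. The value of a gene with several transcripts was not read as absence where it was low. In whole tissue, fewer cells of a type and less RNA per cell cannot be told apart.

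Icam1, the integrin ligand that holds leukocytes to the vessel wall, had 45, 48 and 34 counts in SAE libraries, against 1339, 1498 and 1135 in CTL libraries. Every SAE library was far below every CTL library. Counts were scaled by library with edgeR's factors to CPM, counts on a common library total, which gave 8.92 ± 1.7 CPM in SAE libraries and 282 ± 39.8 CPM in CTL libraries (mean ± SD, n = 3 each). The SAE mean was 3.17% of the CTL mean, a log2 fold change of -4.98 ± 0.15 (SAE minus CTL, ± approximate SE; edgeR adjusted p = 4.12e-10, from a quasi-likelihood fit of all tested genes, with the method of Benjamini and Hochberg). A gene is called here at an adjusted p under 0.05.

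Vcam1, the endothelial ligand of the alpha-4 integrins, had a smaller fold. It had 677, 692 and 673 counts in SAE libraries, against 1216, 1304 and 1093 in CTL libraries. The groups did not overlap, and the SAE libraries lay within a narrow range. The means were 143 ± 4.55 CPM in SAE libraries and 256 ± 24.4 CPM in CTL libraries, which put SAE at 55.9% of CTL (log2 fold change -0.84 ± 0.07, edgeR adjusted p = 1.84e-10).

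Selp, which encodes P-selectin, a rolling receptor stored in endothelial granules and platelets, had 4, 1 and 4 counts in SAE libraries, against 221, 131 and 234 in CTL libraries. It was close to undetected in SAE libraries and detected in every CTL library. The means were 0.63 ± 0.36 CPM in SAE libraries and 41.6 ± 12.3 CPM in CTL libraries (SD, n = 3 each). The SAE mean was 1.51% of the CTL mean, a CTL-over-SAE ratio of 66.3 with a 95% interval of 34.7 to 146 that covers counting error only. The fitted log2 fold change was -5.99 ± 0.39 (edgeR adjusted p = 9.29e-08). Selp reached the count filter, about 2.1 CPM, in 0 SAE libraries and in all 3 CTL libraries, so it was tested only through the group where it was high.

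Sele, which encodes E-selectin, a rolling receptor made anew by activated endothelium, had 0 counts in all 9 libraries over its 3 transcripts and was not tested. A count of 0 allows up to 3 counts, or 0.613 to 0.648 CPM by library, for counting error only. Pecam1, a defining endothelial gene with 4 RefSeq transcripts, also had 0 counts in all 9 libraries, so the level of Sele is only listed at 0. No fold is given.

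Angpt2 encodes angiopoietin-2, the endothelial antagonist of Tie2 signalling. It had 38, 47 and 30 counts in SAE libraries, against 252, 273 and 261 in CTL libraries. The CTL libraries were close to each other and all above the SAE libraries. SAE libraries had 8.08 ± 1.93 CPM and CTL libraries 55.7 ± 1.31 CPM (SD, n = 3 each), so the SAE mean was 14.5% of the CTL mean (log2 fold change -2.78 ± 0.15, edgeR adjusted p = 1.25e-13).

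Ch25h encodes cholesterol 25-hydroxylase, which makes 25-hydroxycholesterol. It had 13, 18 and 6 counts in SAE libraries, against 321, 273 and 243 in CTL libraries. The groups were far apart, though the SAE counts were few. The means were 2.61 ± 1.31 CPM in SAE libraries and 59.5 ± 10.2 CPM in CTL libraries, with SAE at 4.39% of CTL (log2 fold change -4.5 ± 0.23, edgeR adjusted p = 1.34e-11). At the filter level Ch25h was present in 2 SAE libraries and 3 CTL libraries. The filter asks for 3 libraries, so Ch25h too was tested only through the group where it was high.

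Ptgs2, which encodes cyclooxygenase-2, the inducible enzyme of prostaglandin synthesis, had the smallest difference of the tested members. It had 535, 537 and 629 counts in SAE libraries, against 724, 690 and 795 in CTL libraries. The groups did not overlap, but SAE replicate 3 lay near the lowest CTL library. The means of 119 ± 9.24 CPM in SAE libraries and 157 ± 11.1 CPM in CTL libraries put SAE at 76.1% of CTL (log2 fold change -0.39 ± 0.07, edgeR adjusted p = 6.72e-05). Excitatory neurons also make Ptgs2; Slc17a7, a gene of those cells, had 29600 to 30405 counts in SAE libraries and 26508 to 26920 in CTL libraries, and their part in the Ptgs2 value was not tested.

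Tmem252, which encodes a predicted membrane protein, had 15, 18 and 12 counts in SAE libraries, against 255, 341 and 298 in CTL libraries. No SAE library came near a CTL library. The means were 3.16 ± 0.69 CPM in SAE libraries and 63.2 ± 7.62 CPM in CTL libraries, which put SAE at 5% of CTL (log2 fold change -4.31 ± 0.18, edgeR adjusted p = 5.22e-16).

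**Figure D1:**
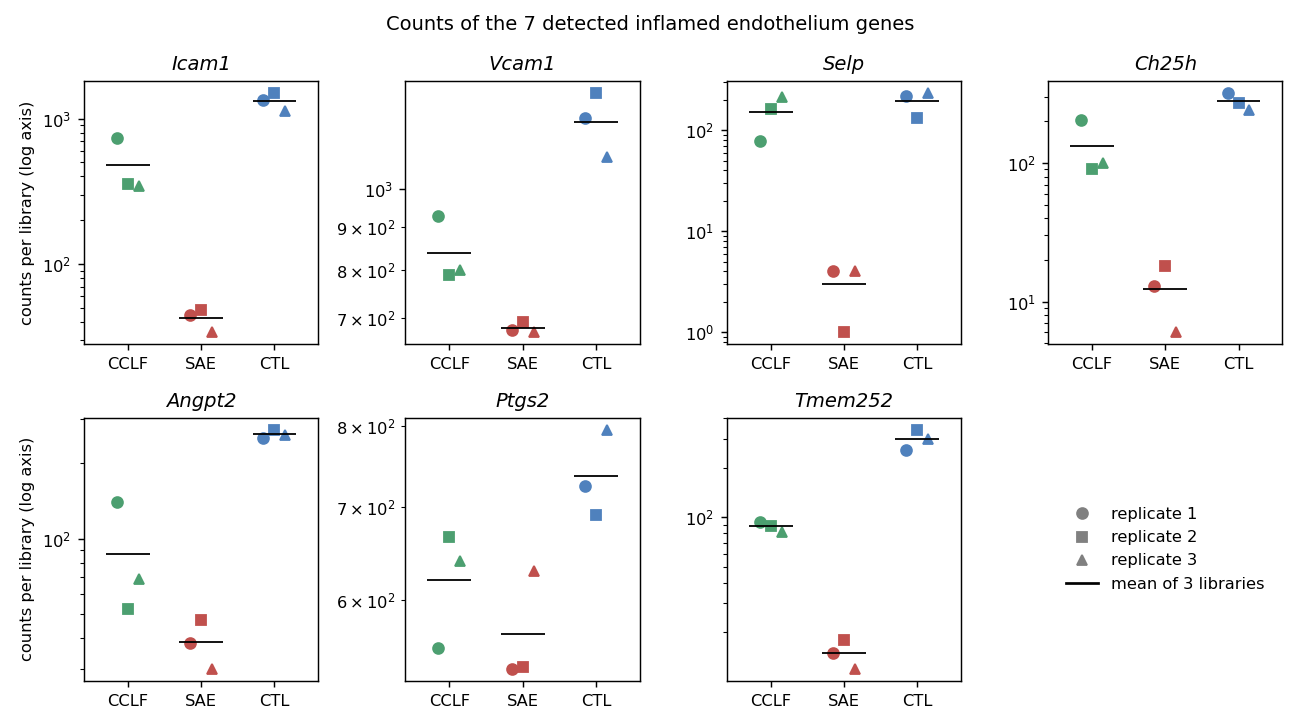
Counts of the 7 detected members in each library (log axis, range set per gene), grouped as CCLF, SAE and CTL, with symbols for replicate numbers and a bar at the group mean. Every SAE library lies below every CTL library in each panel, from 34 to 48 against 1135 to 1498 counts for Icam1 to 535 to 629 against 690 to 795 for Ptgs2.

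Of 8 members 7 were tested, and all 7 were called lower in SAE libraries. Of all 8213 tested genes 47.6% were called in either direction and 23.9% were called lower in SAE libraries. The groups did not overlap in any of these 7, as in 27.8% of all tested genes in the same direction. Icam1, Vcam1, Angpt2, Ptgs2 and Tmem252 passed the filter in all SAE libraries as well as in all CTL libraries, whereas Selp and Ch25h did so in all libraries of the CTL group alone. The members' log2 fold changes ran from -5.99 to -0.39 with a median of -4.31, beside a median of 0.0049 over all tested genes. Their size varied widely: Selp, Icam1, Ch25h and Tmem252 were each more than 16-fold lower, as were 71 of all tested genes (0.865%), Angpt2 lay between, at 14.5% of the CTL mean, and Vcam1 and Ptgs2 were called at less than 2-fold. These fold limits were set after the values were seen. The order of the genes by fold was Selp, Icam1, Ch25h, Tmem252, Angpt2, Vcam1 and Ptgs2.

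**Figure D2:**
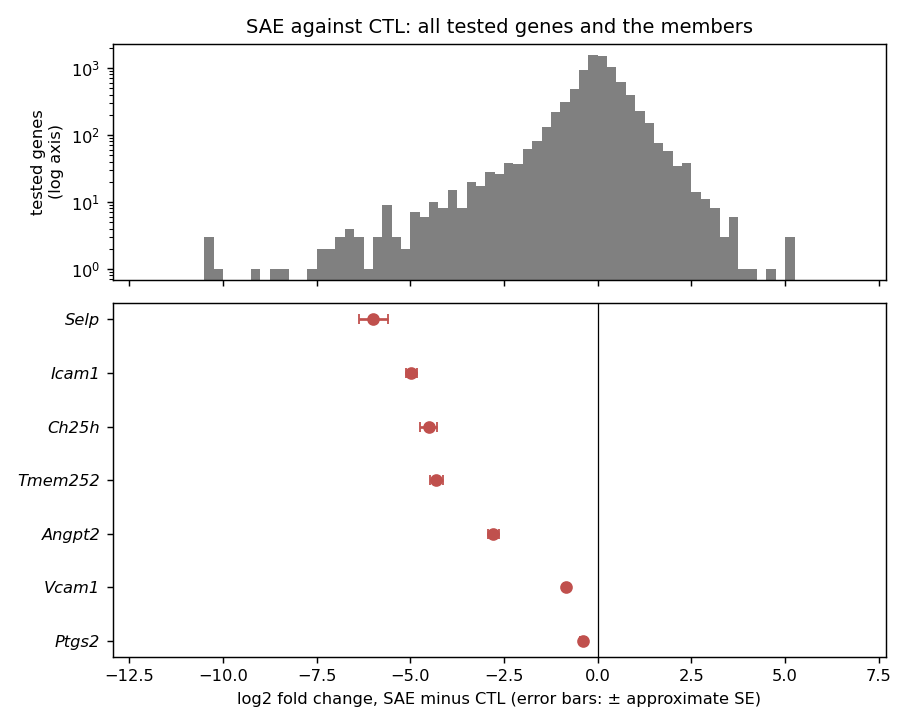
Upper panel, number of tested genes (log axis) by log2 fold change, SAE minus CTL; lower panel, the 7 tested members with their approximate SE. Members run from -5.99 for Selp to -0.39 for Ptgs2, while the 8213 tested genes centre near 0.

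Levels were compared between genes after division by transcript length, taken from the GENCODE transcript paired with each RefSeq accession. In SAE libraries the highest level was that of Vcam1, 41.3 ± 1.31 CPM per kilobase, followed by Ptgs2 at 26.7 ± 2.08 (SD, n = 3). Icam1 (3.52 ± 0.67), Angpt2 (2.27 ± 0.54), Ch25h (1.88 ± 0.94), Tmem252 (0.63 ± 0.14) and Selp (0.18 ± 0.1) came after them, on the same scale of CPM per kilobase. Of these neighbours, the means ± SD of Angpt2 and Ch25h overlapped. In CTL libraries Icam1 stood first at 111 ± 15.7 CPM per kilobase and Vcam1 second at 73.8 ± 7.03. Ch25h (42.9 ± 7.35) and Ptgs2 (35.1 ± 2.5) came next and overlapped, followed by Angpt2 (15.6 ± 0.37), Tmem252 (12.6 ± 1.51) and Selp (12.1 ± 3.59). Selp overlapped both Tmem252 and Angpt2. The highest level was 226 times the lowest in SAE libraries and 9.18 times the lowest in CTL libraries. The lowest SAE level, that of Selp, rests on 4, 1 and 4 counts, so the value of 226 is only loosely known.

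**Figure D3:**
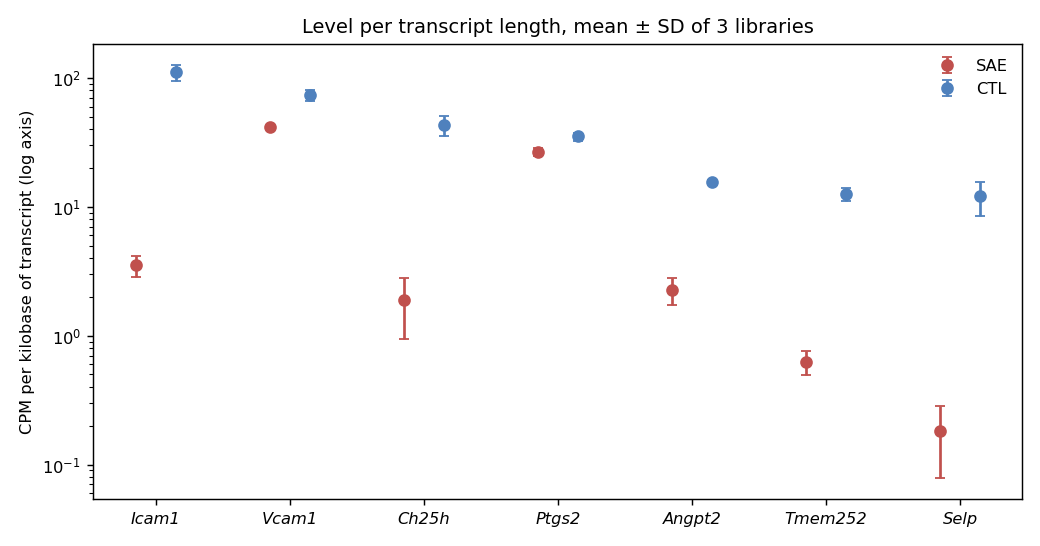
CPM per kilobase of transcript (log axis), mean ± SD of 3 libraries, for the 7 tested members in SAE and CTL libraries, ordered by the CTL mean. The SAE and CTL means are closest for Vcam1 and Ptgs2, while Icam1 stands at 3.52 in SAE and 111 in CTL.

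In the CCLF libraries Icam1 had 740, 357 and 346 counts and Ch25h 206, 91 and 101. Angpt2 had 140, 52 and 69 and Vcam1 927, 789 and 799. In these 4 genes CCLF replicate 1 was the highest of its group. Selp had 78, 164 and 212 counts and Ptgs2 554, 666 and 640, and in these CCLF replicate 1 was the lowest. Tmem252 was even, at 94, 89 and 82 counts. The ratio of the highest to the lowest CCLF library, on the CPM scale, was 1.15 for Tmem252, 2.14 for Icam1 and 2.72 for Selp.

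Placed on a scale from the SAE mean (0%) to the CTL mean (100%) of CPM, the CCLF libraries lay at 54.4%, 24.6% and 23.7% for Icam1 and at 45.5%, 6.14% and 13.7% for Angpt2. Selp lay at 38.9%, 83.6% and 109%, and Ptgs2 at -6.17%, 59.4% and 44.2%. Over the 3912 called genes the median position was 50.7%, 49.6% and 50% in CCLF replicates 1, 2 and 3, and the CCLF mean fell between the SAE and CTL means in 99.1% of them. The members' placement between the groups is therefore shared with nearly all called genes in this table. Whether the CCLF columns are measurements independent of the SAE and CTL columns was not tested.

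**Figure D4:**
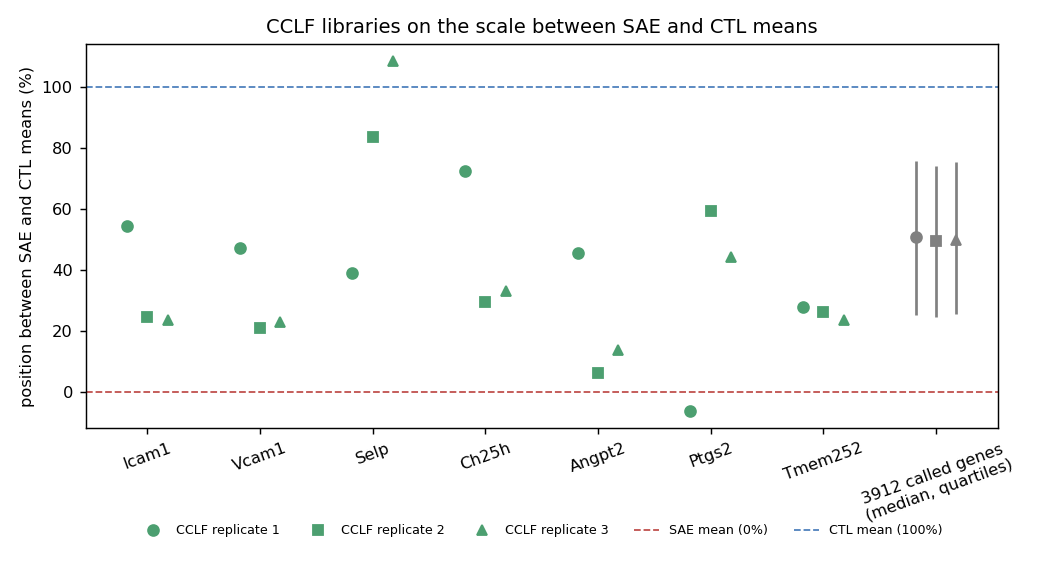
Position of each CCLF library between the SAE mean (0%) and the CTL mean (100%) of CPM for 7 members, with the median and quartiles over the 3912 called genes at the right. Members run from -6.17% (Ptgs2, replicate 1) to 109% (Selp, replicate 3), and the medians over called genes lie at 49.6% to 50.7%.

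Genes around the members were described by lists, which together held 203 other genes, of which 94 were tested, with 25 higher and 35 lower in SAE libraries. Of all 8213 tested genes 23.7% were called higher and 23.9% lower in SAE libraries, and these shares stand beside every list count below. A list count near them is not read as particular to that list. Cytokine receptor and NF-kB genes, measured in whole hippocampus, had 0 higher and 7 lower of 9 tested (median log2 fold change -1.23). The part of endothelium in the values of this list and of the coagulation list below was not tested. Tnfrsf1a, a TNF receptor gene, had 41.8 ± 0.92 CPM in SAE libraries and 223 ± 29.5 in CTL libraries (n = 3 each; log2 fold change -2.41 ± 0.09, edgeR adjusted p = 3e-14). Myd88, the adaptor of Toll-like and IL-1 receptors, was lower by a log2 fold change of -1.83 ± 0.14 and Tnfrsf1b, the other TNF receptor gene, of -1.36 ± 0.13. Nfkbia, an NF-kB inhibitor that NF-kB itself induces, was lower as well (-2.11 ± 0.28, edgeR adjusted p = 0.00409).

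Coagulation and fibrinolysis genes of endothelium had 1 higher and 5 lower of 7 tested (median -0.41). Procr, the endothelial protein C receptor gene, had 0.98 ± 0.31 CPM in SAE libraries and 8.62 ± 2.91 in CTL libraries (n = 3 each; log2 fold change -3.1 ± 0.38, edgeR adjusted p = 3.18e-07). With 3, 5 and 6 counts in SAE libraries, below the count filter of about 2.1 CPM, Procr was tested only through the group where it was high. Plat, which encodes tissue plasminogen activator, was lower by a log2 fold change of -1.66 ± 0.11. Vwf, the von Willebrand factor gene, was the higher one (0.89 ± 0.3, edgeR adjusted p = 0.0187).

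Angiopoietin, Tie and VEGF genes split, with 4 higher and 5 lower of 11 tested (median 0.21). Of the higher genes, Aplnr (4, 7 and 5 counts in CTL libraries) was tested only through the SAE group, where it was high. Of the lower genes, Nrp1 and Esm1 were tested only through the CTL group, where they were high. Tie1, the gene of a co-receptor for angiopoietins, had 59.3 ± 3.85 CPM in SAE libraries and 51.1 ± 3.97 in CTL libraries (log2 fold change 0.21 ± 0.1, edgeR adjusted p = 0.079). Tek, which encodes the angiopoietin receptor Tie2, had 0 to 1 counts per library over 4 transcripts, and Angpt1, its agonist, had 0, so neither was tested. The higher genes included Apln, the apelin gene (1.6 ± 0.12), and Flt1, a VEGF receptor gene (0.6 ± 0.07). The lower ones included Foxo1, a transcription factor gene that drives Angpt2 in endothelium (-0.44 ± 0.06), and Flt4, the VEGF receptor 3 gene (-1.05 ± 0.14), all as log2 fold changes.

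Prostaglandin genes had 0 higher and 2 lower of 5 tested (median 0.069). Ptges, the inducible prostaglandin E synthase that works downstream of cyclooxygenase-2, had 9, 11 and 14 counts in SAE libraries, against 157, 180 and 128 in CTL libraries. The SAE and CTL libraries were well apart (log2 fold change -3.78 ± 0.22, edgeR adjusted p = 5.94e-13). With 9 counts in SAE replicate 1, below the count filter, Ptges was tested only through the group where it was high. The constitutive synthase gene Ptges2 was lower by -0.19 ± 0.07 (edgeR adjusted p = 0.0272), and Ptges3 had 0.07 ± 0.05 (edgeR adjusted p = 0.287).

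Oxysterol genes had 1 higher and 1 lower of 5 tested (median 0.18). Gpr183, the receptor for oxysterols made from 25-hydroxycholesterol, had 24, 15 and 25 counts in SAE libraries, against 10, 5 and 22 in CTL libraries. Its groups overlapped (log2 fold change 0.77 ± 0.4, edgeR adjusted p = 0.12). Srebf2, the transcription factor gene of cholesterol synthesis, whose activation 25-hydroxycholesterol blocks, was higher by 0.49 ± 0.08 (edgeR adjusted p = 2.08e-05). Abcg1, a sterol exporter gene, was lower by -0.19 ± 0.05 (edgeR adjusted p = 0.00219).

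Leukocyte partners of the adhesion molecules were mostly below the filter. The integrin genes Itgal, Itgam and Itgb2, whose products bind Icam1, were listed at 0 in all libraries, which was not read as absence. Itga4, whose product binds Vcam1, was higher in SAE libraries at 174 ± 6.86 CPM, against 124 ± 10.5 CPM in CTL libraries (n = 3 each; log2 fold change 0.49 ± 0.07, edgeR adjusted p = 2.27e-06). Its partner Itgb1 was lower by -0.58 ± 0.07 (edgeR adjusted p = 1.97e-06). Selplg, the P-selectin ligand gene, had 17, 9 and 19 counts in SAE libraries and 3, 2 and 2 in CTL libraries and was not tested. Of other endothelial adhesion genes 4 of 14 were tested, with Podxl higher (0.21 ± 0.07, edgeR adjusted p = 0.0103) and F11r lower (-0.32 ± 0.11, edgeR adjusted p = 0.0245).

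**Figure D5:**
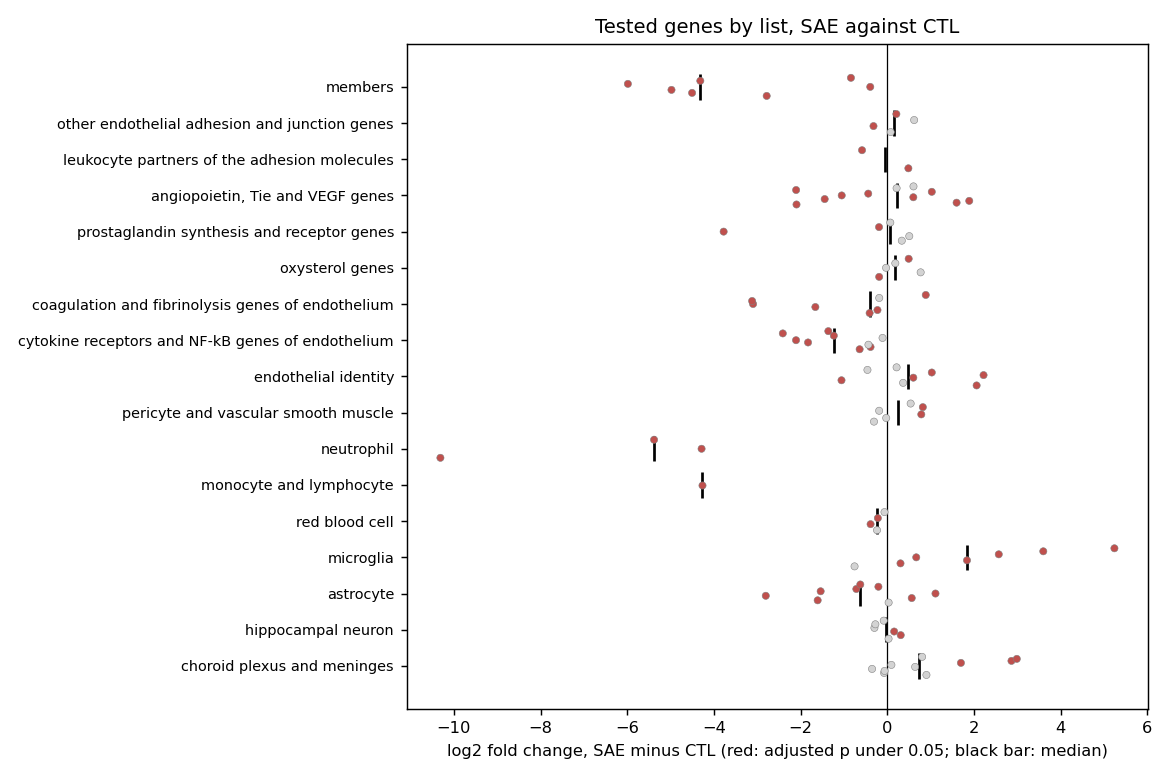
Log2 fold change, SAE minus CTL, of each tested gene in each list, with called genes in red and the list median as a black bar. The members' median is -4.31, the median of endothelial identity genes 0.48 and that of the cytokine receptor and NF-kB list -1.23.

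More genes of endothelial identity were called higher than lower in SAE libraries. Of 20 such genes 8 were tested, with 4 higher and 1 lower in SAE libraries (median 0.48). Their summed level was 516 to 546 CPM in SAE libraries and 376 to 411 CPM in CTL libraries. Itm2a was higher by 2.22 ± 0.08 (edgeR adjusted p = 9.65e-17) and Cldn5, the gene of the tight-junction protein claudin-5, lower by -1.06 ± 0.08 (edgeR adjusted p = 8.22e-11). Abcb1a, also higher, had 5, 3 and 9 counts in CTL libraries. It was tested only through the SAE group, where it was high. Pecam1, Ly6a, Mfsd2a, Emcn and Slco1c1, each with several RefSeq transcripts, were at 0 in every library. Pericyte and smooth muscle genes had 2 higher and 0 lower of 6 tested, with a summed level of 623 to 735 CPM in SAE libraries and 407 to 452 CPM in CTL libraries, and Pdgfrb, Kcnj8 and Abcc9 at 0.

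Markers of several other cell types were called too, beside 23.7% called higher and 23.9% called lower of all tested genes. Neutrophil genes had 0 higher and 3 lower of 3 tested, with a summed level of 4.76 to 8.49 CPM in SAE libraries and 2834 to 3145 CPM in CTL libraries, most of it from Lcn2, which other cells also make in inflammation. S100a8 had 8, 2 and 2 counts in SAE libraries, against 157, 176 and 177 in CTL libraries, and Ngp, a neutrophil granule gene, had 3, 4 and 3 counts in SAE libraries, against 55, 39 and 106 in CTL libraries (log2 fold change -4.29 ± 0.49, edgeR adjusted p = 6.9e-06). The SAE means of S100a8 and Ngp, 0.84 and 0.7 CPM, were below the count filter of about 2.1 CPM, and that of Lcn2 was 2.32 CPM. Lcn2 had 13, 14 and 6 counts in SAE libraries, with replicate 3 below the filter. In none of the 3 genes did every SAE library reach the filter. All 3 were thus tested only through the CTL group, where they were high. The lower direction of all 3 was therefore set by the filter. Mmp8, the neutrophil collagenase gene, was not tested, at 4, 4 and 0 counts in SAE libraries, against 20, 9 and 31 in CTL libraries. S100a9, Ly6g, Cxcr2 and Csf3r, each with several RefSeq transcripts, were listed at 0, which was not read as absence. Of monocyte and lymphocyte genes only Chil3 was tested and it was lower (log2 fold change -4.29 ± 0.5, edgeR adjusted p = 3.52e-06). Its SAE mean of 0.56 CPM was below the count filter, so Chil3 too was tested only through the group where it was high. Summed levels of the list were 1.03 to 2.97 CPM in SAE libraries and 5.84 to 15.6 CPM in CTL libraries, with 8 of 13 genes at 0. Most of the CTL sum was Chil3, at 11.4 ± 5.1 CPM. Cd79a, a B-cell gene of this list, went the other way, at 8, 7 and 3 counts in SAE libraries and 1, 1 and 0 in CTL libraries, and was not tested. Microglial genes were higher in 6 of 7 tested and lower in 0, with a summed level of 887 to 958 CPM in SAE libraries and 580 to 829 CPM in CTL libraries and P2ry12 and Gpr34 at 0. Siglech (0, 0 and 1 counts in CTL libraries) and Cx3cr1 (24, 7 and 29) were tested only through the SAE group, where they were high. C1qa, the tested gene not called, went the other way (log2 fold change -0.76 ± 0.26, edgeR adjusted p = 0.0789). The part of these cells in the members' values was not tested.

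Among 9 tested astrocyte genes 2 were higher and 6 lower, at a summed 3557 to 3618 CPM in SAE libraries and 3474 to 3718 CPM in CTL libraries. Of the lower ones, Aqp4 and Gjb6 were tested only through the CTL group, where they were high. Of 4 tested haemoglobin genes 0 were higher and 2 lower, at a summed 458 to 566 CPM in SAE libraries and 584 to 604 CPM in CTL libraries, with Alas2 at 0. Choroid plexus and meningeal genes had 3 higher and 0 lower of 10 tested, at a summed 839 to 1576 CPM in SAE libraries and 686 to 1008 CPM in CTL libraries. Of the higher ones, Slc22a6 (12, 9 and 16 counts in CTL libraries) was tested only through the SAE group, where it was high. Hippocampal neuron genes had 2 higher and 0 lower of 6 tested, at a summed 8232 to 8506 CPM in SAE libraries and 7478 to 7652 CPM in CTL libraries, and Slc17a7 and Neurod6, markers of excitatory neurons of the labelled tissue, were detected in every library. Spink8 was at 0.

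The 5 other genes whose log2 CPM over the 6 SAE and CTL libraries was most like the mean z-score of the tested members were Tnfsf8, Nsun2, Endod1, Ppp1r15a and Brf1, with Pearson correlations of 0.999 to 1. With 2 groups of 3 libraries such a value mostly follows the difference between groups: 18.8% of the other tested genes had a correlation of at least 0.95 in size. Tnfsf8, a TNF family ligand gene, had 0, 0 and 0 counts in SAE libraries, against 56, 53 and 51 in CTL libraries. It was tested only through the group where it was high. Ppp1r15a, a gene of the integrated stress response, had 270, 271 and 278 counts in SAE libraries, against 505, 499 and 499 in CTL libraries.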

How the data were processed

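Total RNA of hippocampus was depleted of ribosomal RNA before library preparation, per the labels' protocols. The deposited table gives whole-number counts for 120312 RefSeq transcripts in 9 libraries. fastp and Salmon are the tools given in the submitters' processing notes; neither versions nor settings nor an index or build are recorded for them in the labels. All 120312 rows were matched to symbols with the RefSeq table of GRCm38.p6 and summed to 38911 genes, with no row left out.

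The 6 SAE and CTL libraries were fitted with edgeR's quasi-likelihood F test (robust) after filterByExpr by group, which left 8213 genes, and TMM scaling (factors 0.983 to 1.02). P-values were adjusted by Benjamini-Hochberg over all tested genes. The SE is the size of the log2 fold change over the square root of F. Members, lists, motifs and tests were chosen with earlier results of these data known, and no list was tested as a set. Named genes are the members, direct partners of members, and up to 4 called genes with the smallest p of each list; Nfkbia, Vwf, Ptges3, Mmp8 and genes listed at 0 were added after values were seen, and a gene the rule would name is not reported here. CCLF libraries were scaled together with the other 6 for description. Labels call the libraries biological replicates, and p-values measure the spread between them. The fit was also run on simulated counts with known changes, and its outcome is not reported here. Every simulated gene had the same spread setting, so that run does not cover genes as low and variable as Selp and Ch25h in SAE libraries. Tables were handled in Python 3.11.15 (pandas 2.3.3, scipy 1.17.1, numpy 2.4.6, matplotlib 3.10.9) and fits in R 4.3.3 with DESeq2 1.42.0, edgeR 4.0.16 and limma 3.58.1.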

Additional observations from a re-analysis of the deposited data

How the results depend on the processing

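Each of the 7 tested members was recomputed under 14 alternatives: other tests (limma-voom and DESeq2's Wald test), DESeq2's size factors, other filters (none, or 1 CPM in 3 libraries), all 9 libraries, a replicate block, omission of each of the 6 libraries in turn, and, chosen after seeing the data, only genes with 1 RefSeq transcript. All 98 of these values kept the direction and an adjusted p under 0.05. The log2 fold changes ran from -6.23 to -5.59 for Selp, from -5.1 to -4.82 for Icam1 and from -0.45 to -0.35 for Ptgs2. The highest adjusted p came from the fit of all 9 libraries in 6 of 7 members and from limma-voom in Tmem252. For Ptgs2 the adjusted p ran from 4.94e-07 to 0.00187 over the alternatives. The number of called genes over the whole table was 3912 of 8213, and 2565 of 4776 when only genes with 1 RefSeq transcript were fitted, which tests fewer genes by construction. Called genes of the other lists numbered 60, and 43 to 68 over the alternatives. Leaving out a library gave 3543 to 3932 called genes. The replicate block gave 3892 called genes and changed no member's call. The deviations of same-numbered SAE and CTL libraries correlated at 0.0264, -0.013 and 0.0227, and those of differently numbered libraries at -0.0325 to 0.00865. SAE replicates 1 and 3 correlated best with their own number and SAE replicate 2 did not. Values this small cannot decide whether same-numbered libraries shared a batch. Depth limits Selp and Ch25h, whose SAE libraries held 1 to 4 and 6 to 18 counts, and leaves Sele untested.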

Other observations

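The CCLF libraries did not share an order across inflammation genes. Selp (78, 164 and 212 counts in CCLF replicates 1, 2 and 3) had its lowest count in replicate 1, as did S100a8 (37, 145 and 167) and Tnfrsf1a (210, 677 and 872). Icam1, Ch25h, Angpt2 and Vcam1 had their highest count in replicate 1, as did Procr (39, 14 and 18). Plat was highest in replicate 2 (1161, 2030 and 712). These genes were picked after their values were seen, and the difference in order was not tested.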
